A study of Mus musculus with 6 samples.

Results

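The genes described here are the solute carrier (SLC) genes of primary mouse lung fibroblasts (LFs), the cells that make and remodel the connective tissue of the lung. They were taken as the protein-coding genes whose mouse symbol is Slc followed by a digit, with Slc2a1, Slc16a3 and Slc7a11 set aside and a mean of at least 10 raw counts over the 6 libraries required. Of the 55364 genes listed, 371 carried such a symbol, 368 were left once the 3 were set aside, and 148 reached the count minimum. The genes just inside it were Slc26a10, Slc4a3 and Slc5a6, each with a mean of 10.3 counts, and the first outside were Slc25a16 with 9.83 and Slc4a7 and Slc16a1 with 9.33.

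Solute carriers are membrane proteins that let amino acids, metal ions, nucleotides, sugars and inorganic ions cross the plasma membrane or the membranes of organelles, either down a gradient or coupled to another ion. Numbering is by family. Slc7 and Slc38 genes carry amino acids, and Slc30 and Slc39 genes move zinc out of and into the cytosol. Most Slc25 genes are carriers of the inner mitochondrial membrane, and Slc9, Slc12 and Slc20 genes move protons, chloride and phosphate. In fibroblasts, amino acid carriers feed collagen synthesis, and carriers of the Golgi bring in the activated sugars and sulfate that matrix proteins are decorated with.

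All cells came, per the study, from C57Bl6/J mice 8 to 10 weeks old and were exposed in serum-free medium to 10 ng/ml TGFβ, the cytokine that turns fibroblasts into collagen-producing myofibroblasts, for 24 h, and no untreated library was analysed here. One genotype was wt (3 libraries) and the other Tks5+/- (3 libraries), which the sample labels call a knockout, with 1 allele of Sh3pxd2a, the gene of the podosome scaffold Tks5, lacking exon 11 in every tissue after a cross to mice with Cre under a CMV promoter. The study describes its samples in general as independent. Which of its Sh3pxd2a alleles the cells carried, and whether each of these libraries came from a different mouse, is not given in the sources used here, and p-values measure the spread between these libraries. RNA was read from its 3′ end (QuantSeq), and levels are given as CPM, raw counts scaled to a common library size, in which a count stands for a transcript end and is not divided by length.

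Library totals ran from 1344507 to 2369882 counts. Sh3pxd2a itself had 205, 190 and 284 counts in wt replicates 1 to 3 and 238, 258 and 260 in the libraries labelled Tks5+/- (log2 fold change 0.29, SE 0.20, adjusted p = 0.249). The deleted exon lies outside the 3′ end that was read, and whether the altered allele still gives 3′ reads is not known here. These counts therefore do not settle the labels, on which each direction below rests. Among 8 fibroblast markers, summed levels were 3031 to 4636 CPM in wt and 4167 to 6695 CPM in the libraries labelled Tks5+/-. The markers did not move together, with all 8 tested, 1 lower (Pdgfrb) and 3 higher (Col3a1, Pdgfra and Thy1). Col1a1, Col1a2, Dcn and Lum were not called. The 12 macrophage markers summed to 355 to 2104 CPM in wt, highest in replicate 3, and to 126 to 140 CPM in the libraries labelled Tks5+/-, with 6 of the 10 tested lower and Adgre1 and Ptprc without a count in the latter. The 6 endothelial markers summed to 106 to 127 CPM against 45.6 to 59.9 CPM and the 5 mesothelial ones to 20.9 to 25.1 CPM against 3.58 to 12.1 CPM. The 8 epithelial markers summed to 32.1 to 66.4 CPM in wt and 29.7 to 62.0 CPM in the libraries labelled Tks5+/-, with 3 tested, 2 lower and 1 higher. Krt18 (9, 11 and 31 counts in wt, 0, 0 and 1 in the others) and Cldn4 (23, 15 and 50, 0, 3 and 0) were lower. Cdh1 went from 17, 8 and 58 counts to no count, Ager (log2 fold change 1.82, adjusted p = 4.53e-05) was higher and made up most of the Tks5+/- sum, and Sftpc and Sftpb had no count in any library. Of 6 genes of sex and strain, Xist had no count in any library and the Y-linked Ddx3y (-2.84, adjusted p = 1.45e-08) and the mitochondrial transhydrogenase Nnt (-1.56, adjusted p = 0.000238) were lower on the log2 scale in the libraries labelled Tks5+/-. The other Y-linked gene tested, Eif2s3y, was not called (-0.23, adjusted p = 0.688). Whether the genotypes differed in strain background was not tested.

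Counts were compared between the genotypes with the quasi-likelihood F test of edgeR over all 10346 genes that passed its count filter. A gene is called where the Benjamini-Hochberg adjusted p fell below 0.05 with a change of 1.2-fold or more. Of the 148 solute carrier genes 147 were tested. In the libraries labelled Tks5+/- 41 of them (27.9%) were called lower, where 22.1% of all genes tested were, and 23 (15.6%) higher, where 22.8% of all genes were. Called in either direction were 43.5%, close to the 44.9% of all genes. The median log2 fold change was -0.37 over the solute carrier genes and -0.05 over all genes tested. In 81 of the 148 genes the libraries of the genotypes did not overlap, with 54 of them down and 27 up under the label Tks5+/-. Among all genes tested 53.8% did not overlap. Scaling by library totals alone moved the median of all genes to -0.47 and that of the solute carrier genes to -0.79, and gave 71 lower and 10 higher, so each direction below is relative to the bulk of the genes.

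Calls were then counted by substrate class. Amino acid carriers and ion carriers were mostly lower, the carriers of nucleotide sugars and related donors in the Golgi and endoplasmic reticulum (ER) were called in the higher direction alone, and metal and mitochondrial carriers went both ways. Of 23 amino acid carriers 13 were called lower and 1 higher (median log2 fold change -0.86), and of 15 ion carriers tested 10 were lower and 1 higher (median -1.22). The 21 metal carriers held 5 lower and 3 higher genes (median -0.39), the 31 mitochondrial carriers 2 lower and 6 higher (median 0.05), and the 12 nucleotide sugar carriers 0 lower and 6 higher (median 0.58). Slc35a4, which was called lower, was counted among the orphans and not with the other Slc35a genes in the nucleotide sugar class. The mitochondrial class holds every Slc25 gene that reached the count minimum, among them the peroxisomal Slc25a17, which is 1 of its higher genes. No test was made between the classes.

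**Figure D1:**
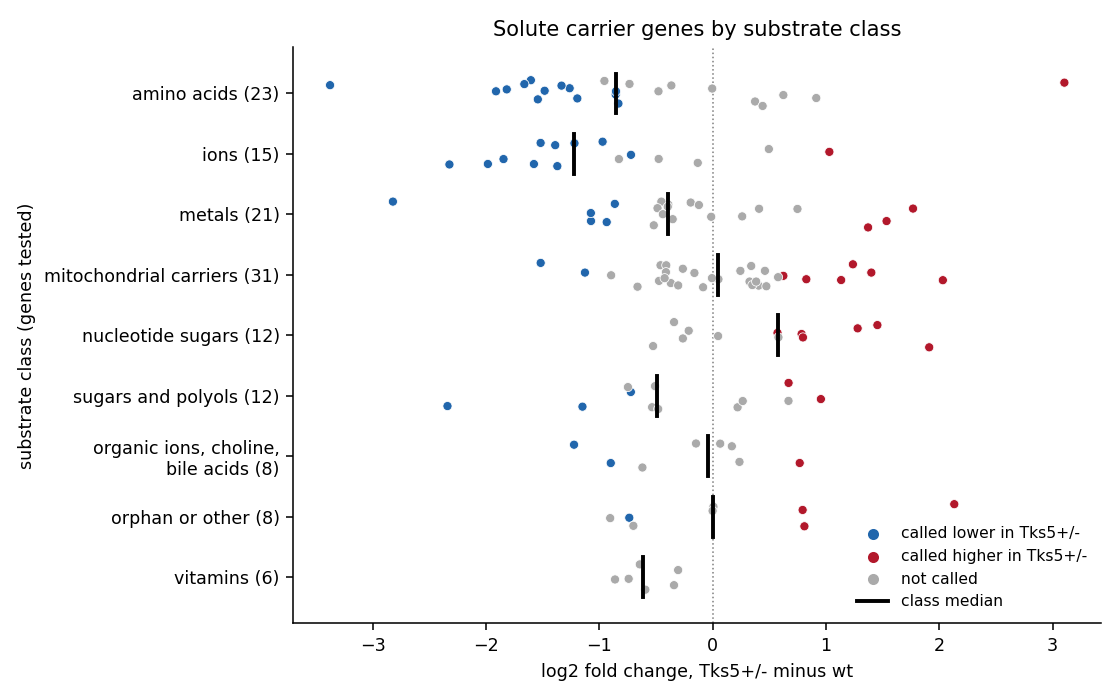
Log2 fold change of each solute carrier gene tested (libraries labelled Tks5+/- minus wt, x axis) in the 9 classes with 6 or more genes (y axis, number tested in parentheses). Points are genes, coloured by call, and black bars are class medians, which run from -1.22 for ions to 0.58 for nucleotide sugars.

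**Figure D2:**
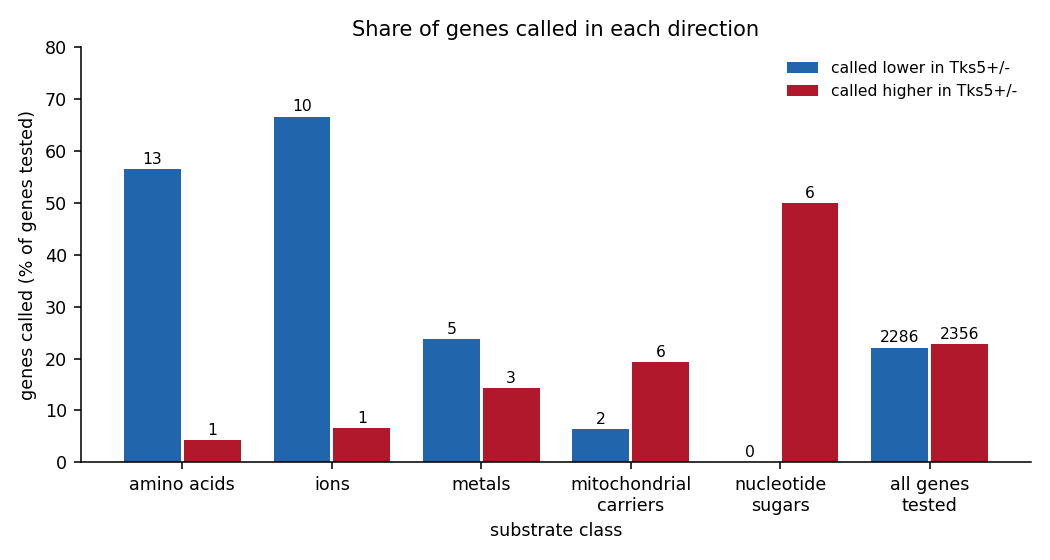
Percent of the genes tested that were called in each direction (y axis) in 5 substrate classes and among all genes tested (x axis), with the number of genes above each bar. All genes stand at 22.1% lower and 22.8% higher, while amino acid and ion carriers hold 13 and 10 lower genes against 1 higher each.

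Some counts could not be assigned to a gene. With 100 bases added past each end, the ends of 17 solute carrier genes overlapped the end of a gene on the opposite strand. Only opposite-strand genes with at least 10 counts on average were considered. In 7 of these pairs the 2 genes held nearly the same counts in all 6 libraries, differing by at most 5% in sum: Slc6a20b with Sacm1l, Slc51a with Pcyt1a, Slc6a9 with Ccdc24, Slc51b with Rasl12, Slc15a3 with Tmem132a, Slc8b1 with Tpcn1 and Slc4a2 with Fastk. Slc6a20b and Sacm1l, for instance, both had 47, 61 and 112 counts in wt and 23, 10 and 28 in the libraries labelled Tks5+/-. In 3 more pairs the counts differed by 11.7% to 17.1%, among them Slc35a2 with Pqbp1 and Slc25a26 with Lrig1. Of these 10 solute carrier genes 6 were called lower and 2 higher, and their reads cannot be assigned to either gene of a pair. Without them 35 solute carrier genes were lower and 21 higher, amino acid carriers stood at 11 lower and 1 higher, ion carriers at 8 and 0, and nucleotide sugar carriers at 0 and 5. The pairs were looked for after the data were seen.

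**Figure D3:**
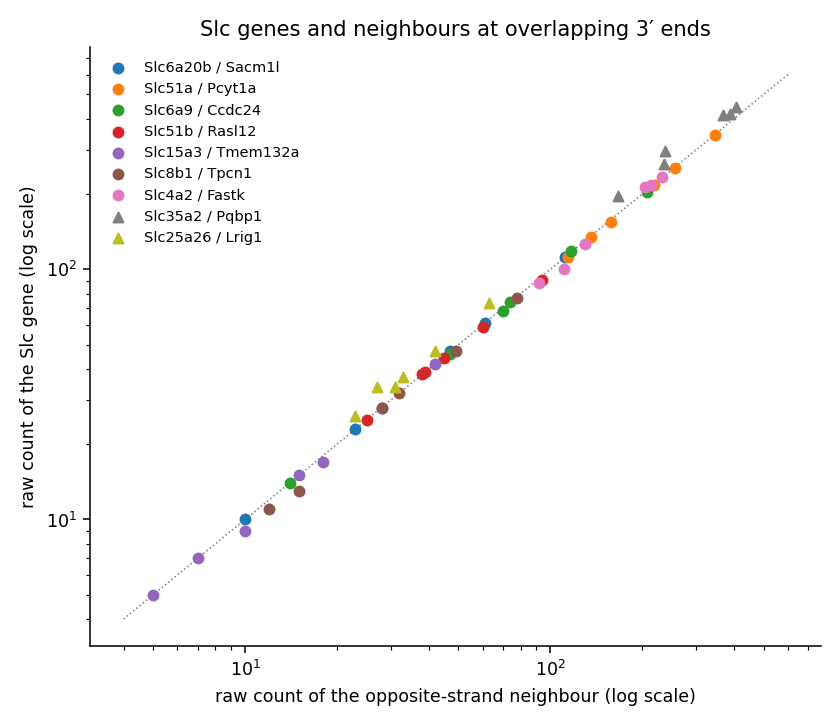
Raw counts of 9 of these solute carrier genes (y axis, log scale) against those of the opposite-strand neighbour at the same end (x axis, log scale) in the 6 libraries. Circles mark the 7 pairs that differ by at most 5% and triangles 2 that differ by up to 12.7%, and the dotted line marks equal counts.

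Amino acid carriers fell in several families at once. Slc7a5, the light chain of the exchanger that imports leucine and other large neutral amino acids, had 61.1, 69.0 and 77.1 CPM in wt and 26.3, 19.3 and 22.5 CPM in those labelled Tks5+/- (log2 fold change -1.60, SE 0.23, adjusted p = 1.01e-05). Every wt library was above every library labelled Tks5+/-, and the call held in all 17 alternatives tried. Slc3a2, the heavy chain that carries Slc7a5 to the surface, had 121, 180.3 and 149 CPM and 139, 63.2 and 121 CPM in the same order, with overlapping groups and a log2 difference of -0.48 (SE 0.25, adjusted p = 0.123). The log2 ratio of Slc7a5 to Slc3a2 was -0.98, -1.39 and -0.95 in wt and -2.40, -1.71 and -2.42 in the libraries labelled Tks5+/-, a difference of -1.07 with no overlap. An exact two-sided permutation test over the libraries gave p = 0.1 for this ratio, the smallest value 3 libraries against 3 allow (0.12 when adjusted over 6 pairs, which were chosen after their values were seen).

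The cationic amino acid carrier Slc7a1, which imports arginine and lysine, went from 98.5, 105 and 80.1 CPM in wt to 45.5, 39.8 and 32.8 CPM (log2 fold change -1.26, SE 0.22, adjusted p = 9.04e-05). Slc1a5, the sodium-coupled glutamine carrier, had 51.5, 59.4 and 44.1 CPM in wt and 33.5, 25.2 and 26.6 CPM in those labelled Tks5+/- (log2 fold change -0.86, SE 0.24, adjusted p = 0.00552). In both genes the lowest wt library was above the highest library labelled Tks5+/-. Slc38a2, the sodium-coupled carrier of small neutral amino acids that is known to be induced when amino acids run short, was not called, with 100.4, 124 and 196 CPM and 126, 104 and 98.8 CPM and a log2 difference of -0.36 (SE 0.23, adjusted p = 0.212). Its wt replicate 3 was well above the other libraries, and the 95% interval of its log2 change was -0.85 to 0.12. Under library totals both Slc3a2 (log2 fold change -0.88, adjusted p = 0.00987) and Slc38a2 (-0.78, adjusted p = 0.0113) were called lower, and Slc3a2 also with the authors' normalized counts (-0.79, adjusted p = 0.0207).

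Carriers of amino acid derivatives fell as well. Slc6a8, which takes up creatine, had 82.4, 95.8 and 97.9 CPM in wt and 27.4, 16.4 and 29.2 CPM in those labelled Tks5+/- (log2 fold change -1.91, SE 0.24, adjusted p = 1.71e-06). It was the amino acid class gene with the smallest adjusted p. Slc6a6, the taurine carrier, had 43.1, 32.1 and 33.4 CPM and 20.9, 20.5 and 18.4 CPM (log2 fold change -0.85, SE 0.26, adjusted p = 0.0094). This call was lost without wt replicate 1 (adjusted p = 0.0519) and with a correction for transcript length (adjusted p = 0.212). The glycine carrier Slc6a9, whose counts are shared with Ccdc24, had 68, 118 and 203 counts in wt and 74, 14 and 46 in the other genotype (log2 fold change -1.33, adjusted p = 0.0271). Its call was lost without each of wt replicate 2 (adjusted p = 0.0672), wt replicate 3 (0.0667) and Tks5+/- replicate 3 (0.118). Slc38a10, a member of the same family as Slc38a2, had 110.1, 113 and 131 CPM and 47.7, 43.3 and 30.7 CPM (log2 fold change -1.54, SE 0.22, adjusted p = 9.34e-06), a call that held in all 17 alternatives.

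Other called genes of the class are named after their values were seen. Slc1a6, a glutamate carrier known from Purkinje cells of the cerebellum, showed the largest fall of all solute carrier genes, from 99, 140 and 118 counts in wt to 3, 4 and 25 in the libraries labelled Tks5+/- (log2 fold change -3.38, SE 0.53, adjusted p = 0.000465). The lysosomal glutamine carrier Slc38a7 (-1.82), the cationic carrier Slc7a2 (-1.48), Slc36a4 (-1.19) and the serine and alanine carrier Slc1a4 (-0.83, adjusted p = 0.0379) were lower too on the log2 scale. Slc6a20b was called lower on the counts it shares with Sacm1l. The call of Slc1a4 was lost in 9 of 17 alternatives, among them those without each of wt replicate 1 (adjusted p = 0.0667), wt replicate 2 (0.0797), wt replicate 3 (0.0984), Tks5+/- replicate 2 (0.146) and Tks5+/- replicate 3 (0.125), and that of Slc36a4 with DESeq2 (adjusted p = 0.1), with a correction for transcript length (log2 fold change -0.72, adjusted p = 0.143) and without Tks5+/- replicate 3 (adjusted p = 0.0597). Slc38a4, a sodium-coupled carrier of neutral amino acids, was the 1 gene called higher, at 3, 4 and 6 counts in wt and 16, 17 and 72 counts in the libraries labelled Tks5+/- (log2 fold change 3.10, SE 0.58, adjusted p = 0.000313). Every wt library had under 10 counts of it, and Tks5+/- replicate 3 held most of its reads.

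Summed over the 23 genes, the class stood at 950.0, 1123 and 1148 CPM in wt and at 673, 517 and 583 CPM in the libraries labelled Tks5+/-, with no overlap. Over the alternatives the class held 9 to 17 lower and 0 to 3 higher genes. Among all genes tested 22.1% were called lower and 22.8% higher (median log2 fold change -0.05). Of 16 partner genes of amino acid sensing and synthesis, all tested, 3 were lower and 6 higher (median log2 fold change 0.19). On the log2 scale the lower ones were the stress-induced factor Atf5 (-1.22), the leucine sensor Sesn2 (-1.47) and the pyrimidine synthesis enzyme Cad (-1.35). Psat1 (1.71), Phgdh (0.82) and Shmt2 (0.69), enzymes of serine and glycine synthesis, Gpt2 (0.88), Lamtor1 (0.80) and Eif4ebp1 (1.36) were higher. Atf4, the transcription factor that drives many amino acid carriers, was not called, with a log2 difference of -0.24 (SE 0.20, adjusted p = 0.348).

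Promoters of the class were searched for the amino acid response element that Atf4 family proteins bind, spelled TGATGNAAN and counted on both strands of the 300 bases from 250 before to 50 after the first start that RefSeq lists on GRCm38.p6. A promoter was matched for 112 of the 148 genes. The motif was found in 2 of 16 amino acid carrier promoters, those of Slc1a4 and Slc7a7, in 3.57% of all 112 and in 4.04% of the 27025 promoters of all genes. The promoter of Slc1a4 (chr11:20332664-20332963, reverse strand) is shown because Slc1a4 is the 1 called gene of the class with the motif, which is in capitals, and its log2 change was -0.83.
Slc1a4: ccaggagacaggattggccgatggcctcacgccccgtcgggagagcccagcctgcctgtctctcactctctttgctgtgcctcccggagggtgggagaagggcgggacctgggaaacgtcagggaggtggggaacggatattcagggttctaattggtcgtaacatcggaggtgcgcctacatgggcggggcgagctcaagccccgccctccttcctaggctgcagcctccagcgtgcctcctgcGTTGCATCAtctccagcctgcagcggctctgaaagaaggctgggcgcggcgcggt

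Ion carriers fell in most of their families. Slc20a1, the sodium-coupled phosphate importer and the ion carrier with the highest level, had 198, 204 and 314 CPM in wt and 70.2, 53.8 and 75.2 CPM in those labelled Tks5+/- (log2 fold change -1.85, SE 0.23, adjusted p = 1.55e-06). Its wt replicate 3 stood above the others, and without it the log2 fold change was -1.60 (adjusted p = 2.5e-06). Its paralogue Slc20a2 had 29.6, 22.5 and 14.8 CPM and 31.3, 43.3 and 18.4 CPM, with overlapping groups and a log2 difference of 0.50 (SE 0.32, adjusted p = 0.208). The log2 ratio of Slc20a1 to Slc20a2 fell by 2.27 between the genotypes, from 2.74, 3.19 and 4.4 to 1.17, 0.31 and 2.03, with no overlap (exact permutation p = 0.1, 0.12 adjusted over the 6 pairs).

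Slc9a8, a sodium-proton exchanger of the Golgi and endosomes, had 26.4, 26.8 and 31.9 CPM in wt and 7.68, 3.51 and 5.63 CPM in those labelled Tks5+/- (log2 fold change -2.32, SE 0.34, adjusted p = 9.34e-06), the largest fall of the class. Slc12a4, which exports potassium with chloride, had 70.8, 50.8 and 47.1 CPM and 19.2, 12.9 and 10.2 CPM (log2 fold change -1.98, SE 0.28, adjusted p = 6.7e-06). Slc26a2, the sulfate importer whose loss is known to impair cartilage proteoglycans, had 40.5, 38 and 41.9 CPM and 13.7, 11.7 and 16.4 CPM (log2 fold change -1.52, SE 0.26, adjusted p = 7.42e-05). In all 3 genes the groups did not overlap, and the calls held in each alternative that gave a value (16 for Slc9a8, 17 for the others).

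Slc8a1, the sodium-calcium exchanger of the plasma membrane, had 38.6, 36.4 and 15.6 CPM in wt and 15.9, 15.2 and 7.16 CPM in those labelled Tks5+/- (log2 fold change -1.22, SE 0.36, adjusted p = 0.00892). Wt replicate 3 was level with the upper libraries labelled Tks5+/-, and the call was lost with a correction for transcript length (log2 fold change -0.25, adjusted p = 0.593) and without Tks5+/- replicate 3 (adjusted p = 0.0672). Slc12a2, which imports sodium, potassium and chloride together, was not called, with 15.4, 13.9 and 11.1 CPM and 5.49, 7.61 and 15.4 CPM, overlapping groups and a log2 difference of -0.48 (SE 0.38, adjusted p = 0.324).

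Other lower genes, named after their values were seen, were the calcium exchangers Slc24a3 (-1.58) and Slc8b1 (-1.39), Slc12a9 (-1.37, with overlapping groups) and the chloride-bicarbonate exchanger Slc4a2 (-0.97), of which Slc8b1 and Slc4a2 share counts with a neighbour. Slc12a9 lost its call with DESeq2 (adjusted p = 0.148), with a correction for GC content (0.0916), with the authors' normalized counts (0.0728) and without each of wt replicate 1 (adjusted p = 0.099), wt replicate 2 (0.132), Tks5+/- replicate 2 (0.14) and Tks5+/- replicate 3 (0.135). Slc26a10 was not tested, at 6, 5 and 19 and 24, 3 and 5 counts. The class summed to 718, 667 and 712 CPM in wt and 361, 308 and 296 CPM in the libraries labelled Tks5+/-, with no overlap. It held 7 to 11 lower and 0 to 1 higher genes over the alternatives. For comparison, 22.1% of all genes tested were lower and 22.8% higher (median log2 fold change -0.05). Of 30 partner genes matched, 24 were tested, 11 of them lower and 3 higher (median log2 fold change -0.59). The sodium pump regulator Fxyd6 (-1.76), the calcium pumps Atp2a2 (-0.60) and Atp2b4 (-2.66), the kinase Wnk1 (-0.79), which regulates Slc12 carriers, and the pyrophosphate exporter gene Ank (-1.66) were among the lower ones. Chp1 (0.89), the calcineurin-like subunit of sodium-proton exchangers, Car13 (0.99) and Kcnj2 (2.96) were higher.

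**Figure D4:**
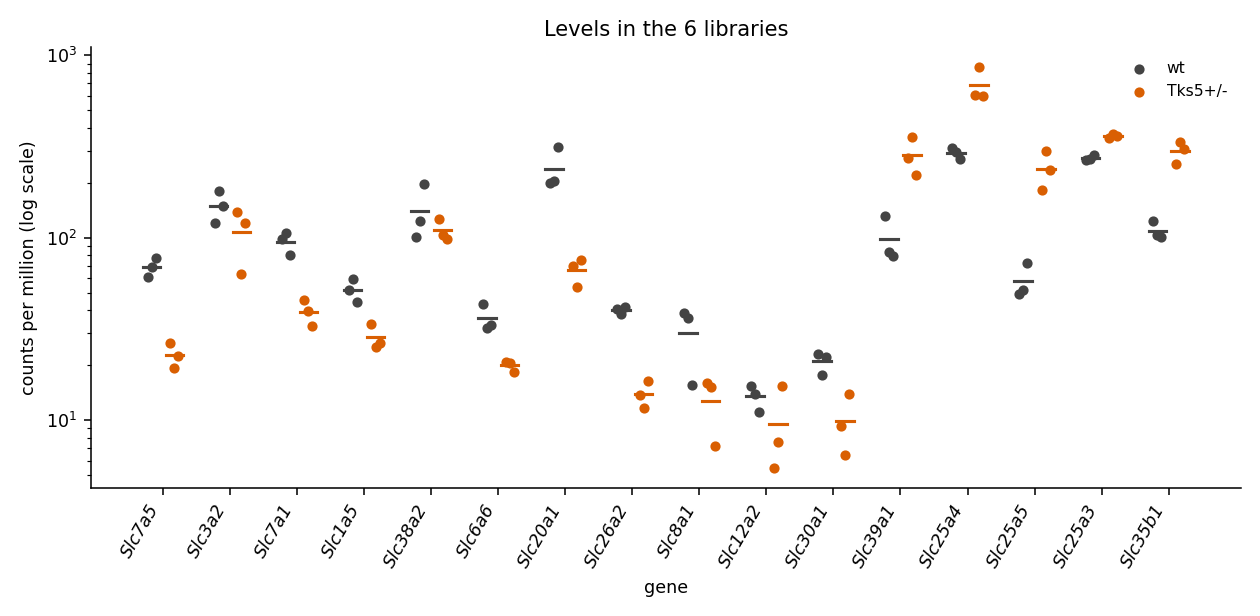
CPM (y axis, log scale) of 16 solute carrier genes (x axis) in each of the 3 wt and 3 Tks5+/- libraries, with a bar at the mean of each genotype. Slc7a5, Slc7a1, Slc20a1 and Slc26a2 stand lower in the libraries labelled Tks5+/-, Slc39a1, Slc25a4, Slc25a5 and Slc35b1 higher, and Slc3a2, Slc38a2 and Slc12a2 overlap between the genotypes.

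Metal carriers split by gene and not by family. Among the zinc importers of the Slc39 (ZIP) family, Slc39a5 had 19.3, 23.0 and 20.4 CPM in wt and 2.19, 1.76 and 4.61 CPM in those labelled Tks5+/- (log2 fold change -2.82, SE 0.41, adjusted p = 8.6e-06). Slc39a7, which releases zinc from the ER, had 335, 284 and 309 CPM and 167, 147 and 126 CPM (log2 fold change -1.07, SE 0.20, adjusted p = 0.000178). Slc39a6 was lower too (log2 fold change -0.86, adjusted p = 0.00429). Slc39a1, a zinc importer of the plasma membrane, went the other way, from 131, 83.5 and 79.0 CPM to 273, 354 and 220.1 CPM (log2 fold change 1.53, SE 0.24, adjusted p = 1.97e-05). Groups did not overlap in any of these 4 genes.

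The Slc30 (ZnT) family, which moves zinc out of the cytosol, split likewise. Slc30a1, the exporter at the plasma membrane and a textbook target of the zinc-sensing factor Mtf1, had 23.2, 17.7 and 22.2 CPM in wt and 9.33, 6.44 and 13.8 CPM in those labelled Tks5+/- (log2 fold change -1.08, SE 0.33, adjusted p = 0.0109). The groups did not overlap, but the call was lost with DESeq2 (adjusted p = 0.0619), with a correction for transcript length (0.0877) and without Tks5+/- replicate 2 (0.0646). Slc30a7, a zinc carrier of the Golgi, rose from 28.3, 24.6 and 35.2 CPM to 66.9, 72.6 and 90.6 CPM (log2 fold change 1.37, SE 0.23, adjusted p = 5.22e-05). Slc30a6, which pairs with Slc30a5 to load zinc into the early secretory pathway, rose from 8.37, 10.2 and 4.82 CPM to 27.4, 32.2 and 18.4 CPM (log2 fold change 1.77, SE 0.35, adjusted p = 0.000267). Slc30a5 was not called, with a log2 difference of 0.75 (SE 0.34, adjusted p = 0.0798), though it was with a correction for transcript length (adjusted p = 0.0302). The log2 ratio of Slc30a6 to Slc30a5 was 1.04 higher in the libraries labelled Tks5+/- (exact permutation p = 0.1, 0.12 adjusted over the 6 pairs).

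Carriers of other metals were mostly not called. Slc41a2, a magnesium carrier, was lower (log2 fold change -0.94, adjusted p = 0.00406). Slc48a1, the heme carrier of endosomes and lysosomes and the metal class gene with the highest level, had 462, 522 and 432 CPM in wt and 393, 276 and 409 CPM in the libraries labelled Tks5+/-, with no overlap and a log2 difference of -0.39 (SE 0.21, adjusted p = 0.131). It was called lower with the authors' normalized counts (log2 fold change -0.80, adjusted p = 0.0046) and under library totals (-0.80, adjusted p = 0.00347). Slc11a2, the proton-coupled iron importer, had 58.6, 69.0 and 63.4 CPM and 32.4, 49.2 and 51.7 CPM (log2 fold change -0.52, SE 0.23, adjusted p = 0.0672). It was called lower under upper-quartile scaling (adjusted p = 0.0475), library totals (log2 fold change -0.95, adjusted p = 0.00153) and a minimum of 10 counts in every library (adjusted p = 0.0398). Slc39a14, which takes up zinc and free iron, had a log2 difference of -0.49 (SE 0.39, adjusted p = 0.323). The sum over the class was 1571, 1612 and 1584 CPM and 1435, 1385 and 1451 CPM. The alternatives gave 4 to 11 lower and 3 to 5 higher genes, with 11 lower under library totals.

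Beside 22.1% lower and 22.8% higher among all genes tested (median log2 fold change -0.05), partner genes of metal handling were counted. Of these 27 genes 22 were tested, 6 lower and 8 higher (median log2 fold change 0.02). The metallothioneins Mt1 (0.61, adjusted p = 0.0188) and Mt2 (1.05, adjusted p = 0.000273), which bind zinc and copper and are like Slc30a1 targets of Mtf1, were higher, as was Mtf1 itself (0.83, adjusted p = 0.00249), while Slc30a1 was lower. The ferritin chains also parted, with Fth1 at -1.49 (adjusted p = 4.09e-05) and Ftl1 at 0.63 (adjusted p = 0.0227). Fth1 had 1009, 939 and 1803 CPM in wt, highest in replicate 3 like the macrophage markers, whose part in this value was not tested. The copper ferroxidases Cp (-3.24) and Heph (-1.13) were lower, and the metal reductases Steap1 (1.70) and Steap3 (1.67) and the Golgi ion carrier Tmem165 (1.92) were higher.

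The metal response element that Mtf1 binds, searched as TGCGCNC or TGCACNC on both strands, was found in 10 of the 17 metal carrier promoters matched, in 0 of 16 amino acid carrier promoters, in 41.1% of the 112 solute carrier promoters and in 25.6% of those of all genes. It was also found in 6 of 9 ion carrier promoters, so these letters are not limited to metal carriers. An antioxidant response element spelled TGACNNNGC was found in 23.2% of the 112 promoters and in 12.5% of all. A match is a description of the letters and no sign that a protein binds there. The promoter of Slc30a1 (chr1:191906531-191906830, forward strand) is shown because Slc30a1 and the metallothioneins moved in opposite directions, with its 2 metal response matches, both on the reverse strand, in capitals.
Slc30a1: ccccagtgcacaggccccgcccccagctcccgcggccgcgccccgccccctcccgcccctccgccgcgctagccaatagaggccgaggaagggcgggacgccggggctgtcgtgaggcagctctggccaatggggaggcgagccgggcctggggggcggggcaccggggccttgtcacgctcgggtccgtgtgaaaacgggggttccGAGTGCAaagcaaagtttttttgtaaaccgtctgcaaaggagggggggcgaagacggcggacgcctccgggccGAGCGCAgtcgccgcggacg

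Mitochondrial carriers were led by both ADP/ATP carriers, which exchange the ADP of the cytosol for the ATP made in the matrix. Slc25a5 had 48.9, 51.9 and 72.7 CPM in wt and 183, 298 and 234 CPM in those labelled Tks5+/- (log2 fold change 2.03, SE 0.23, adjusted p = 5.47e-07). Slc25a4, the solute carrier gene with the highest level of all, had 309.6, 295 and 269 CPM and 602, 858 and 600.3 CPM (log2 fold change 1.24, SE 0.21, adjusted p = 5.84e-05). Both calls held in all 17 alternatives, and in neither gene did the groups overlap. The log2 ratio of Slc25a5 to Slc25a4 was -2.66, -2.51 and -1.89 in wt and -1.72, -1.52 and -1.36 in the libraries labelled Tks5+/-, a rise of 0.82 (exact permutation p = 0.1, 0.12 adjusted over the 6 pairs). The genes are near copies of each other and have processed pseudogenes, so reads could be split among copies.

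Slc25a3, the phosphate carrier that supplies the ATP synthase, had 266, 269 and 282 CPM in wt and 353, 368 and 363 CPM in the libraries labelled Tks5+/-. The groups did not overlap, but the log2 difference of 0.41 (SE 0.19, adjusted p = 0.0903) did not pass the threshold, and DESeq2 (adjusted p = 0.044) and a correction for transcript length (0.0123) called it. Slc25a30, a relative of the uncoupling proteins, had 24.5, 18.2 and 24.5 CPM and 47.2, 81.9 and 49.1 CPM (log2 fold change 1.40, SE 0.26, adjusted p = 0.000167). Slc25a17, which by its known place belongs to peroxisomes and not mitochondria, had 24.5, 16.6 and 14.5 CPM and 25.8, 59.7 and 34.8 CPM (log2 fold change 1.13, SE 0.31, adjusted p = 0.00468). This call was lost without Tks5+/- replicate 2 (adjusted p = 0.0562) and with library totals as scaling (0.0627). The ornithine carrier Slc25a15 (0.83, with overlapping groups) and the NAD carrier Slc25a51 (0.62), named after their values were seen, were also called higher. Slc25a15 lost the call in 8 of 17 alternatives, namely with DESeq2 (adjusted p = 0.0898), limma-voom (0.0586), the authors' normalized counts (0.0765) and library totals (log2 fold change 0.39, adjusted p = 0.277), and without each of wt replicate 1 (adjusted p = 0.0656), wt replicate 2 (0.0798), Tks5+/- replicate 2 (0.114) and Tks5+/- replicate 3 (0.104). Slc25a51 lost it with the authors' normalized counts (log2 fold change 0.20, adjusted p = 0.441), with library totals (0.20, adjusted p = 0.415) and without each of wt replicate 1 (adjusted p = 0.058), wt replicate 2 (0.0515) and Tks5+/- replicate 3 (0.0901). Slc25a1, the citrate exporter, was not called, with a log2 difference of -0.37 (SE 0.21, adjusted p = 0.154), but was lower under library totals (-0.79, adjusted p = 0.0046) and with a correction for transcript length (-0.64, adjusted p = 0.0176).

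Slc25a37 (mitoferrin 1), which brings iron into mitochondria, had 87.5, 87.8 and 206 CPM in wt and 28.0, 43.3 and 62.4 CPM in those labelled Tks5+/- (log2 fold change -1.52, SE 0.39, adjusted p = 0.00879). Wt replicate 3, the library with the highest macrophage markers, held more than the other wt libraries, and without it the log2 fold change was -0.97 (adjusted p = 0.0055). The call was lost without Tks5+/- replicate 2 (adjusted p = 0.099) and with a correction for transcript length (0.0762). Its paralogue Slc25a28 had a log2 difference of -0.47 (SE 0.37, adjusted p = 0.302), called under library totals alone (-0.89, adjusted p = 0.0496). The log2 ratio of the pair differed by -1.01 with overlapping groups (exact permutation p = 0.2, also when adjusted over the 6 pairs). Slc25a13, the aspartate-glutamate carrier citrin, had 19.3, 17.1 and 29.7 CPM and 8.23, 10.5 and 11.8 CPM (log2 fold change -1.13, SE 0.32, adjusted p = 0.00694). Without wt replicate 3 it lost the call (adjusted p = 0.0832). Its paralogue Slc25a12 had a log2 difference of 0.24 (SE 0.27, adjusted p = 0.478), called higher with a correction for transcript length alone (0.70, adjusted p = 0.0387). The log2 ratio of Slc25a13 to Slc25a12 was -1.32 in the libraries labelled Tks5+/- relative to wt, with no overlap (exact permutation p = 0.1, 0.12 adjusted).

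**Figure D5:**
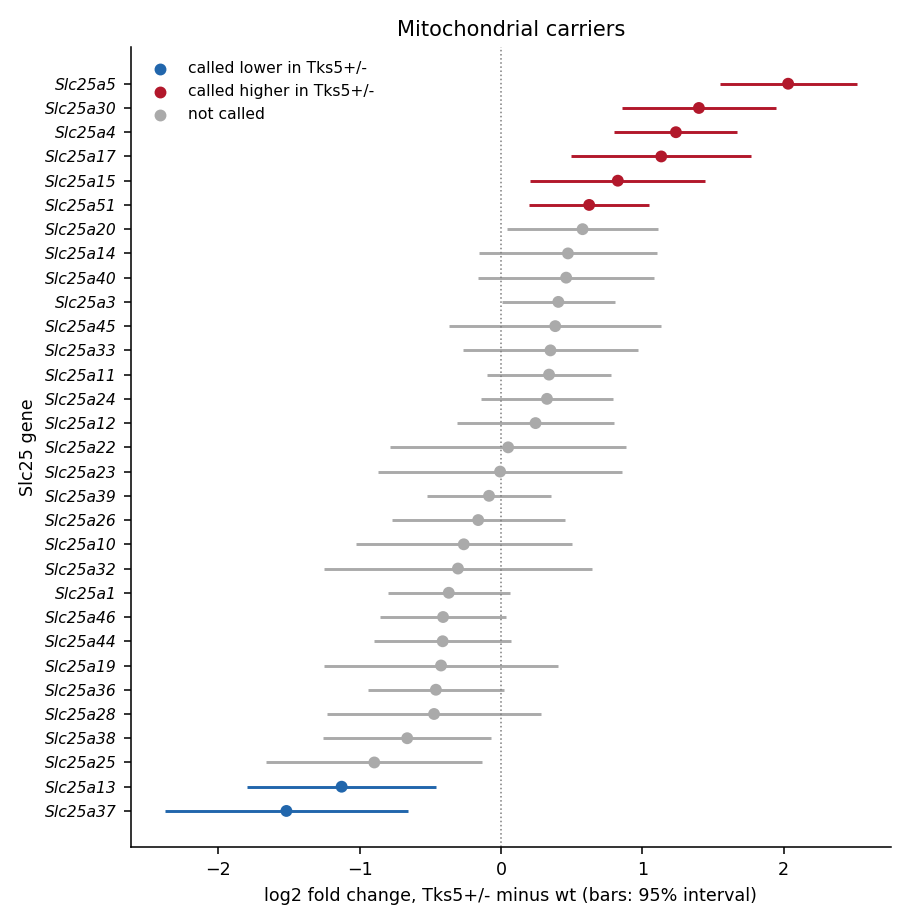
Log2 fold change (libraries labelled Tks5+/- minus wt, x axis) of the 31 Slc25 genes (y axis, in order of the estimate), with 95% intervals as bars and calls as colours. Slc25a5 is highest at 2.03 and Slc25a37 lowest at -1.52, and 23 genes were not called.

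The 31 genes summed to 1743, 1805 and 1907 CPM in wt and 2268, 2764 and 2545 CPM in the libraries labelled Tks5+/-, with no overlap. Over the alternatives the class held 1 to 9 lower and 3 to 8 higher genes, and under library totals it held 9 lower and 3 higher, so that its balance of directions turns with the scaling. All genes tested stood at 22.1% lower and 22.8% higher (median log2 fold change -0.05). Of 21 partner genes 19 were tested, 2 lower and 8 higher (median log2 fold change 0.28). The pyruvate carrier subunits Mpc1 (1.5) and Mpc2 (1.21), the outer membrane pores Vdac1 (1.32) and Vdac3 (1.49), Mtch2 (1.54) and the import proteins Tomm20 (1.19), Timm10 (0.87) and Timm9 (1.23) were higher, and Letm1 (-0.82) and Sfxn3 (-0.78) lower.

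Carriers of nucleotide sugars and related donors lie in the Golgi and ER, where they feed glycosylation and sulfation. Slc35b1, which exchanges ATP and ADP across the ER membrane, had 123, 103 and 100.5 CPM in wt and 255, 334 and 306 CPM in those labelled Tks5+/- (log2 fold change 1.45, SE 0.21, adjusted p = 7.11e-06). Slc35b3, a Golgi carrier of PAPS, the activated form of sulfate, had 5.15, 4.82 and 8.16 CPM and 24.7, 25.7 and 20.5 CPM (log2 fold change 1.91, SE 0.34, adjusted p = 8.89e-05). The other PAPS carrier, Slc35b2, had 198, 169.6 and 213 CPM and 383, 319 and 299 CPM (log2 fold change 0.78, SE 0.20, adjusted p = 0.00307). It was not called under library totals (log2 fold change 0.37, adjusted p = 0.135). Groups did not overlap in any of the 3 genes, and both PAPS carriers were higher where the sulfate importer Slc26a2 was lower. With 100 bases added past each, the ends of Slc35b2 and of Hsp90ab1 on the opposite strand overlapped by 97 bases. Raw counts of Slc35b2 were 308, 317 and 574 in wt and 698, 546 and 584 in the libraries labelled Tks5+/-. Those of Hsp90ab1 were 548, 650 and 735 and 783, 613 and 601, a difference of 23.0% in sum. Whether the 2 genes share reads was not tested.

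The other higher genes, named after their values were seen, were the sialic acid donor carrier Slc35a1 (0.80), the UDP-galactose carrier Slc35a2 (0.57, counts partly shared with Pqbp1) and Slc35a5 (1.28). The call of Slc35a2 was lost with the authors' normalized counts (log2 fold change 0.34, adjusted p = 0.188), with no filter on low counts (0.0514) and without each of wt replicate 1 (adjusted p = 0.0964), wt replicate 2 (0.0888) and Tks5+/- replicate 3 (0.0676). That of Slc35a5 was lost with DESeq2 (adjusted p = 0.11) and without each of wt replicate 1 (adjusted p = 0.107), wt replicate 2 (0.0775), Tks5+/- replicate 2 (0.122) and Tks5+/- replicate 3 (0.0559). Under library totals Slc35a1 (0.38), Slc35a2 (0.16) and Slc35a5 (0.85) all lost the call on the log2 scale. The class summed to 619, 574 and 641 CPM in wt and 1071, 1026 and 1038 CPM in the libraries labelled Tks5+/-. No gene of it was called lower by edgeR or DESeq2, and 0 fell at an unadjusted p under 0.05. It held 0 to 2 lower and 2 to 6 higher genes over the alternatives, with 2 and 2 under library totals. The shares among all genes tested were 22.1% lower and 22.8% higher.

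Of 12 sugar and polyol carriers 3 were lower and 2 higher (median log2 fold change -0.50), beside 22.1% lower and 22.8% higher among all genes tested. Slc5a3, the sodium-coupled importer of the osmolyte myo-inositol, had 21.9, 24.1 and 26 CPM in wt and 1.65, 3.51 and 8.70 CPM in those labelled Tks5+/- (log2 fold change -2.34, SE 0.41, adjusted p = 7.55e-05) and was called in all 16 alternatives that gave a value. Slc2a10 (-0.72, adjusted p = 0.0101), a member of the glucose carrier family, was lower on the log2 scale, as was Slc45a3 (-1.15, adjusted p = 0.0127). Slc37a4, which brings glucose 6-phosphate into the ER, was higher (0.96, adjusted p = 0.0252), and the glucose carrier family member Slc2a12 just passed the threshold (0.67, adjusted p = 0.0493) and was not called in 13 of 17 alternatives. Single libraries bore on the other calls too. Slc2a10 lost its call without each of wt replicate 2 (adjusted p = 0.0633) and Tks5+/- replicate 1 (0.0642), Slc45a3 with DESeq2 (adjusted p = 0.0886) and without each of wt replicate 3 (adjusted p = 0.0945) and Tks5+/- replicate 3 (0.0514), and Slc37a4 with DESeq2 (adjusted p = 0.109), library totals (0.198) and without each of wt replicate 1 (adjusted p = 0.0575), wt replicate 3 (0.0882) and Tks5+/- replicate 2 (0.0949).

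Among smaller classes, the choline carrier Slc44a2 fell from 113, 120.4 and 96.8 CPM in wt to 46.1, 45.1 and 49.6 CPM (log2 fold change -1.22, SE 0.21, adjusted p = 6.7e-05). Slc10a3 was higher (log2 fold change 0.77, adjusted p = 0.00915) and Slc51a (-0.90, adjusted p = 0.00145) shares its counts with Pcyt1a. Slc10a3 lost the call under library totals (log2 fold change 0.34, adjusted p = 0.221) and without each of wt replicate 3 (adjusted p = 0.0539) and Tks5+/- replicate 2 (0.06). The fatty acid carrier Slc27a4 (-0.90, adjusted p = 0.00663, lost without Tks5+/- replicate 2 (adjusted p = 0.0554)) and the lysosomal nucleoside carrier Slc29a3 (-0.81, adjusted p = 0.0028, or 0.0851 with a length correction) were lower. Slc15a4, a peptide and histidine carrier of lysosomes that immune cells are known for, was lower (-0.70, adjusted p = 0.0122), a call lost with a GC correction (adjusted p = 0.0593) and without each of wt replicate 3 (adjusted p = 0.0514) and Tks5+/- replicate 1 (0.0666). Slc15a3, whose counts are shared with Tmem132a, was lower too (-1.60, adjusted p = 0.00471), a call lost without wt replicate 3 (adjusted p = 0.0524). The part of the macrophage markers in these values was not tested, and in bulk samples fewer cells of a type and less RNA per cell cannot be told apart.

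Of the 6 vitamin carriers edgeR with TMM scaling and DESeq2 each called 0, and 0 had an unadjusted p under 0.05 with that edgeR fit. Their log2 fold changes ran from -0.86 to -0.30. Under library totals 2 were called lower, Slc52a2 (-1.28, adjusted p = 0.0158) and Slc19a1 (-1.02, adjusted p = 0.0374). The ascorbate carrier Slc23a2, which supplies the vitamin that collagen hydroxylases need, had 12.9, 6.42 and 11.5 CPM and 7.68, 11.1 and 5.63 CPM (log2 fold change -0.34, SE 0.40, adjusted p = 0.51). Among orphans and genes not assigned to a class, Slc35g2 (2.13, adjusted p = 0.00284), Slc35f5 (0.79, adjusted p = 0.0103) and the acetyl-CoA carrier Slc33a1 (0.81) were higher and Slc35a4 (-0.74, adjusted p = 0.0194) lower. The call of Slc35f5 was lost under library totals (log2 fold change 0.36, adjusted p = 0.218) and without wt replicate 2 (adjusted p = 0.0758). Slc33a1 lost it under library totals (0.39, adjusted p = 0.229), with DESeq2 (0.0591) and without each of wt replicate 1 (adjusted p = 0.0549) and Tks5+/- replicate 3 (0.0638). Slc35a4 lost it in 7 of 17 alternatives, with DESeq2 (adjusted p = 0.0801), a GC correction (0.0758) and the authors' normalized counts (0.0575), and without each of wt replicate 2 (adjusted p = 0.0515), wt replicate 3 (0.0931), Tks5+/- replicate 2 (0.0684) and Tks5+/- replicate 3 (0.0928). Of 4 genes with an Slc symbol that are not carriers, the scaffold Slc9a3r2, which anchors sodium-proton exchangers, was lower (-1.71, adjusted p = 0.000293), while Slc9a3r1, Slc4a1ap (0.12, adjusted p = 0.757) and Slc7a6os were not called.

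Lengths of the transcripts went with the calls. The median length of the longest transcript was 3964 bases in the lower solute carrier genes, 2486 in the higher ones and 3577 in those not called, against 4175, 1959 and 3410.5 (medians) among all genes tested. Spearman's rho between length and log2 fold change was -0.23 across the 147 solute carrier genes and -0.40 across 10339 genes, a description across genes that share their libraries. After a correction of every library for its length trend, amino acid carriers stood at 10 lower and 3 higher, ion carriers at 8 and 1, metal carriers at 4 and 5, mitochondrial carriers at 3 and 8 and nucleotide sugar carriers at 0 and 6.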

How the data were processed

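RNA of 3 wt and 3 Tks5+/- LF cultures was read from its 3′ ends on an Ion Torrent platform (QuantSeq). According to the study's methods and the submitters' processing notes, the authors trimmed reads with Trim Galore, aligned them to GRCm38 (mm10) with HISAT2 and the unmapped ones with Bowtie2, and deposited raw counts per gene over 3′ end regions, made with metaseqR2. Whether counting used strand is not given in the sources used here. The authors also deposited a table of counts normalized with EDASeq and rounded, in which every library has the same set of values, and it was taken as a score and used in 1 alternative only.

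Raw counts of 10346 genes kept by the filter of edgeR 4.0.16 (R 4.3.3) were scaled by TMM and tested with its robust quasi-likelihood F test, wt against Tks5+/-, with Benjamini-Hochberg adjustment over all of them. Calls needed an adjusted p below 0.05 together with a change of 1.2-fold or more. The script was tested on simulated data. CPM use TMM library sizes. Gene types and transcript lengths came from a GRCm38 annotation, to which 55104 of 55364 genes were matched. Alternatives were DESeq2 1.42.0, limma 3.58.1 (voom, and on log2 of the normalized counts with a pseudocount of 1), other scalings and filters, length and GC corrections, a replicate block and each library left out. Library totals of 1344507 to 2369882 counts limit precision for genes near the minimum.

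The genes, classes and lists were chosen with earlier results of these data known. In each of 4 classes (amino acids, metals, mitochondrial carriers, ions) the up to 4 genes called in each direction with the smallest adjusted p are named, in other classes up to 2, and in every class the gene with the highest level, together with a list of 25 textbook carriers. Any other gene was named after its values were seen. Some genes within this rule are not reported here.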

Additional observations from a re-analysis of the deposited data

How the results depend on the processing

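Of the 41 solute carrier genes called lower in the libraries labelled Tks5+/-, 24 kept the call under every alternative that gave a value, and of the 23 called higher 10 did. No called gene changed sign. Without each library in turn, 33 to 41 were lower and 16 to 26 higher. Scaling by library totals gave 71 lower and 10 higher, as the whole distribution moved down with it. A mean of at least 50 counts, which left 63 genes, gave 24 lower and 14 higher. With the replicate block 42 were lower and 23 higher, and the block ended 1 call, that of Slc2a12. Deviations of same-numbered libraries correlated at -0.001, -0.064 and 0.082, and those of differently numbered ones at -0.102 to 0.097. Same numbers thus went with no closer deviations. Whether same-numbered samples came from littermates or were handled together cannot be read from this. Leaving out the 10 genes that share counts with a neighbour, which was added after seeing the data, gave 35 lower and 21 higher. DESeq2 gave 34 lower and 18 higher. Depth limits what can be called among genes near the minimum of 10 counts.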

Other observations

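Of the solute carrier genes under the count minimum, 220 in all, 130 had at least 1 count and 90 had none. Only 8 of the 220 passed the filter of the test, and 1 of them was called, Slc18a2, a vesicular monoamine carrier, which was lower in the libraries labelled Tks5+/- (log2 fold change -1.90, adjusted p = 0.00566). Among textbook carriers that stayed under the minimum, the bicarbonate importer Slc4a7 had 13, 14 and 11 counts in wt and 4, 7 and 7 in the libraries labelled Tks5+/-, the lactate carrier Slc16a1 8, 10 and 11 and 8, 12 and 7, the zinc and manganese importer Slc39a8 3, 14 and 17 and 6, 7 and 8, and the iron exporter Slc40a1 2, 1 and 5 and 1, 2 and 2. Some other genes under the minimum are known from cell types other than fibroblasts and were chosen here after their counts were seen. Slc11a1, an iron and manganese carrier of macrophage phagosomes, had 1, 6 and 33 counts in wt replicates 1 to 3 and 0, 2 and 0 in the libraries labelled Tks5+/-, and Slc37a2, a sugar phosphate carrier that macrophages are known for, had 5, 3 and 13 and 0, 0 and 0. In both the highest count lay in wt replicate 3, the library with the highest macrophage markers. That library also had the largest total, 2369882 counts, and these raw counts are not scaled for it. Slc32a1, the carrier that loads GABA into synaptic vesicles, had 0, 0 and 0 counts in wt and 38, 3 and 4 in the libraries labelled Tks5+/-, and the neuronal potassium-chloride exporter Slc12a5 had 0, 0 and 3 and 32, 0 and 1. Tks5+/- replicate 1 thus held most counts of both neuronal genes. At these counts no fold change is given.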
